A study of Rattus norvegicus with 18 samples.

Results

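Glycolysis splits glucose into pyruvate in the cytosol, and mature red cells, which hold no mitochondria, depend on it. Hexokinases trap glucose in the cell as glucose 6-phosphate, phosphofructokinase commits it to the pathway, and the later enzymes yield ATP and pyruvate, which lactate dehydrogenase can turn into lactate. Activated white blood cells are known to raise their use of glucose. The data describe 10 genes of this pathway in rat blood: the hexokinases Hk1, Hk2 and Hk3, the phosphofructokinase subunits Pfkl and Pfkp, aldolase A (Aldoa), triosephosphate isomerase (Tpi1), phosphoglycerate kinase (Pgk1), pyruvate kinase (Pkm) and lactate dehydrogenase A (Ldha). They are 10 of the 13616 named genes tested and were selected on their log2 ratios on these same arrays, so their responses to the drug are given as a description, with no p-value. They carry 13 probes, 2 each for Tpi1, Pfkl and Pkm, and every one was well above background on all 18 arrays. Where a gene had 2 probes, the one with the higher mean intensity stands for it, and the other is given beside it.

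Blood RNA came from male rats, drawn from the venous sinus of the eye once treatment had ended. Brown Norway (BN) rats are inbred and Sprague Dawley (SD) rats outbred. There were 4 arrays of BN rats given procainamide at 40 mg/kg, 4 of BN control rats given sterile water, 5 of SD rats given procainamide at the same dose and 5 of SD control rats given sterile water. Procainamide is an antiarrhythmic drug known to cause lupus-like autoimmunity in some patients, and the design sets the reaction of one strain against that of the other. The rats' age, the number of days of treatment and whether each array is a separate animal are not given in the sources used here, and Lewis rats, which the design also names, were not analysed here.

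The red dye, Cy5, marked the RNA of each sample. The green dye, Cy3, marked a reference, by the labels control replicate 1 of the same strain. By those labels the arrays of control replicate 1 compare an RNA with itself, yet the log2 ratios of all probes had an SD of 0.409 on BN control 1, against 0.334 to 0.459 on the other BN control arrays. On SD control 1 the SD was 0.252, against 0.205 to 0.285 on the other SD control arrays. The 10 genes lay between -0.31 (Tpi1) and 0.86 (Pfkl) on BN control 1 and between -0.41 (Aldoa) and 0.29 (Hk2) on SD control 1. Some results are therefore also given without these arrays. Median Cy5 signals were 1693.5 to 3187 in BN procainamide, 997 to 1986 in BN control, 1446 to 2627.5 in SD procainamide and 2152 to 2876 in SD control. The 4 BN procainamide arrays lay on slide 3, the 4 BN control arrays on slide 2 with SD procainamide 4 and 5, and SD procainamide 1 to 3 on slide 1 with the 5 SD control arrays. Slide 2 was scanned on another day than slides 1 and 3. The BN groups thus shared neither slide nor scan day, and a term for scan day could be fitted only through the SD procainamide arrays, with slide 3 taken to behave like slide 1.

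RefSeq windows of 250 bases before to 50 after a transcription start were given for 9 of the 10 genes, 12 windows in all, on build GRCr8. Pgk1 has no entry in that table. Windows of 3 genes are shown as examples of different drug responses: Hk3, whose ratios were the highest of the set in both treated groups, Tpi1, which was higher in treated BN blood on both of its probes, and Ldha, which passed the threshold in neither strain. Capitals mark matches, on either strand, to ACGTG, the core of the element bound by hypoxia-inducible factors, and to GAGGAA, a core bound by PU.1, a transcription factor of myeloid cells. The windows are Hk3 at chr17:9604781-9605080 on the plus strand, Tpi1 at chr4:159305039-159305338 on the minus strand and Ldha at chr1:106507842-106508141 on the plus strand, each printed 5′ to 3′ along its gene.
Hk3: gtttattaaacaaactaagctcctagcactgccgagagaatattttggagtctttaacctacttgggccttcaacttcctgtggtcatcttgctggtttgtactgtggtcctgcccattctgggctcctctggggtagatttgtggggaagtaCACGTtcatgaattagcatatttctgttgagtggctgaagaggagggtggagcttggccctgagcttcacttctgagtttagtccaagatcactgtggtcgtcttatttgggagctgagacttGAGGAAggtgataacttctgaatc
Tpi1: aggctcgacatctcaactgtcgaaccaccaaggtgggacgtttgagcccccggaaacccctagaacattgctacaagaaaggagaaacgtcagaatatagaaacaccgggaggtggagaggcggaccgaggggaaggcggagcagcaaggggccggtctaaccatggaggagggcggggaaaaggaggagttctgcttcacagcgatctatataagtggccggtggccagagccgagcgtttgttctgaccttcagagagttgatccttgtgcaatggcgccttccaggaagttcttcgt
Ldha: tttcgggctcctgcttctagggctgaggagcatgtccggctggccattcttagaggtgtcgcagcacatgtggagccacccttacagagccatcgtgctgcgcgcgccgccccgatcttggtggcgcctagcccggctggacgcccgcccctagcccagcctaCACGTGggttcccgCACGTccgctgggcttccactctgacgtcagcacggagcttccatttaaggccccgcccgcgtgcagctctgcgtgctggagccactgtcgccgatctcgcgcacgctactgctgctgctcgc
ACGTG occurred in 4 of the 12 windows, 1 each of Hk1, Hk3, Aldoa and Ldha, against 19.3% of all 33469 windows in the table. The Hk3 match began at position -97 from the start, and Ldha held 3 matches, 2 of which overlap in CACGTG, an E-box found in 6.42% of all windows. GAGGAA occurred in 5 of the 12 windows, 1 each of Hk1, Hk2, Hk3, Pfkp and Aldoa, against 27.6% of all windows, and in Hk3 it began at position 27. No match to ACGTG or GAGGAA was found in the windows of Tpi1, Pfkl and Pkm. These letters describe the windows only.

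The first comparison asked how expression in BN blood differed under procainamide, with 4 treated and 4 control arrays. A gene is said to pass where limma's p, adjusted over all 26446 probes tested, was under 0.05, and differences are log2 units of Cy5 over Cy3. Hk3, Tpi1, Pfkp and Pgk1 were higher and Pfkl and Hk2 lower, so 4 of the 10 passed upward and 2 downward. Of all named genes, 8.99% passed upward and 13.8% downward in this comparison. The groups did not overlap in 5 of the 10 (Hk2, Hk3, Pfkp, Pgk1 and Tpi1), against 19.9% of all named genes. Since the genes were chosen by these ratios, nothing is read from the counts. The median difference was 0.24 over the 10 genes and -0.02 over all named genes. Blood is a mixture, and fewer cells of a type cannot be told apart from less RNA per cell.

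Hk3, a hexokinase known from white blood cells, stood far above the rest. Its log2 ratio was 3.75, 4.60, 4.17 and 3.88 on BN procainamide arrays 1 to 4, against 0.54, -0.10, -0.63 and 0.11 on BN control arrays 1 to 4. Every treated array lay at least 3 log2 units above every control array. The group means were 4.10 ± 0.38 and -0.02 ± 0.49 (SD, n = 4 each), a difference of 4.12 ± 0.32 (SE) or 17.3-fold. In rank of upward difference it was 2 among the 13616 named genes. Without BN control 1 the difference was 4.30 ± 0.34, and over all arrays left out in turn it lay between 3.91 and 4.30. In Cy5 alone, normalized in steps that used both channels, it was 3.32 ± 0.29.

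Hk2, the insulin-regulated hexokinase of muscle and proliferating cells, ran the other way in BN blood. Its log2 ratio was 0.45, 0.46, 0.33 and 0.05 on the BN procainamide arrays, against 0.64, 0.53, 0.74 and 0.95 on the BN control arrays. All treated arrays were below all control arrays, although the control arrays themselves lay well above 0. The difference was -0.39 ± 0.12, a 1.31-fold lower ratio, and it did not pass without BN procainamide 4 (-0.30) or BN control 4 (-0.31). In Cy5 alone it was -0.91 ± 0.12.

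Hk1, the hexokinase of red cells, brain and most tissues, did not pass. It had log2 ratios of -0.10, -0.18, -0.13 and -0.35 in BN procainamide, against 0.55, -0.34, 0.06 and -0.13 in BN control. The groups overlapped, with BN control 1 the highest of the 8 arrays and BN procainamide 4 the lowest. The difference was -0.23 ± 0.15, and -0.05 ± 0.13 without BN control 1.

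**Figure D1:**
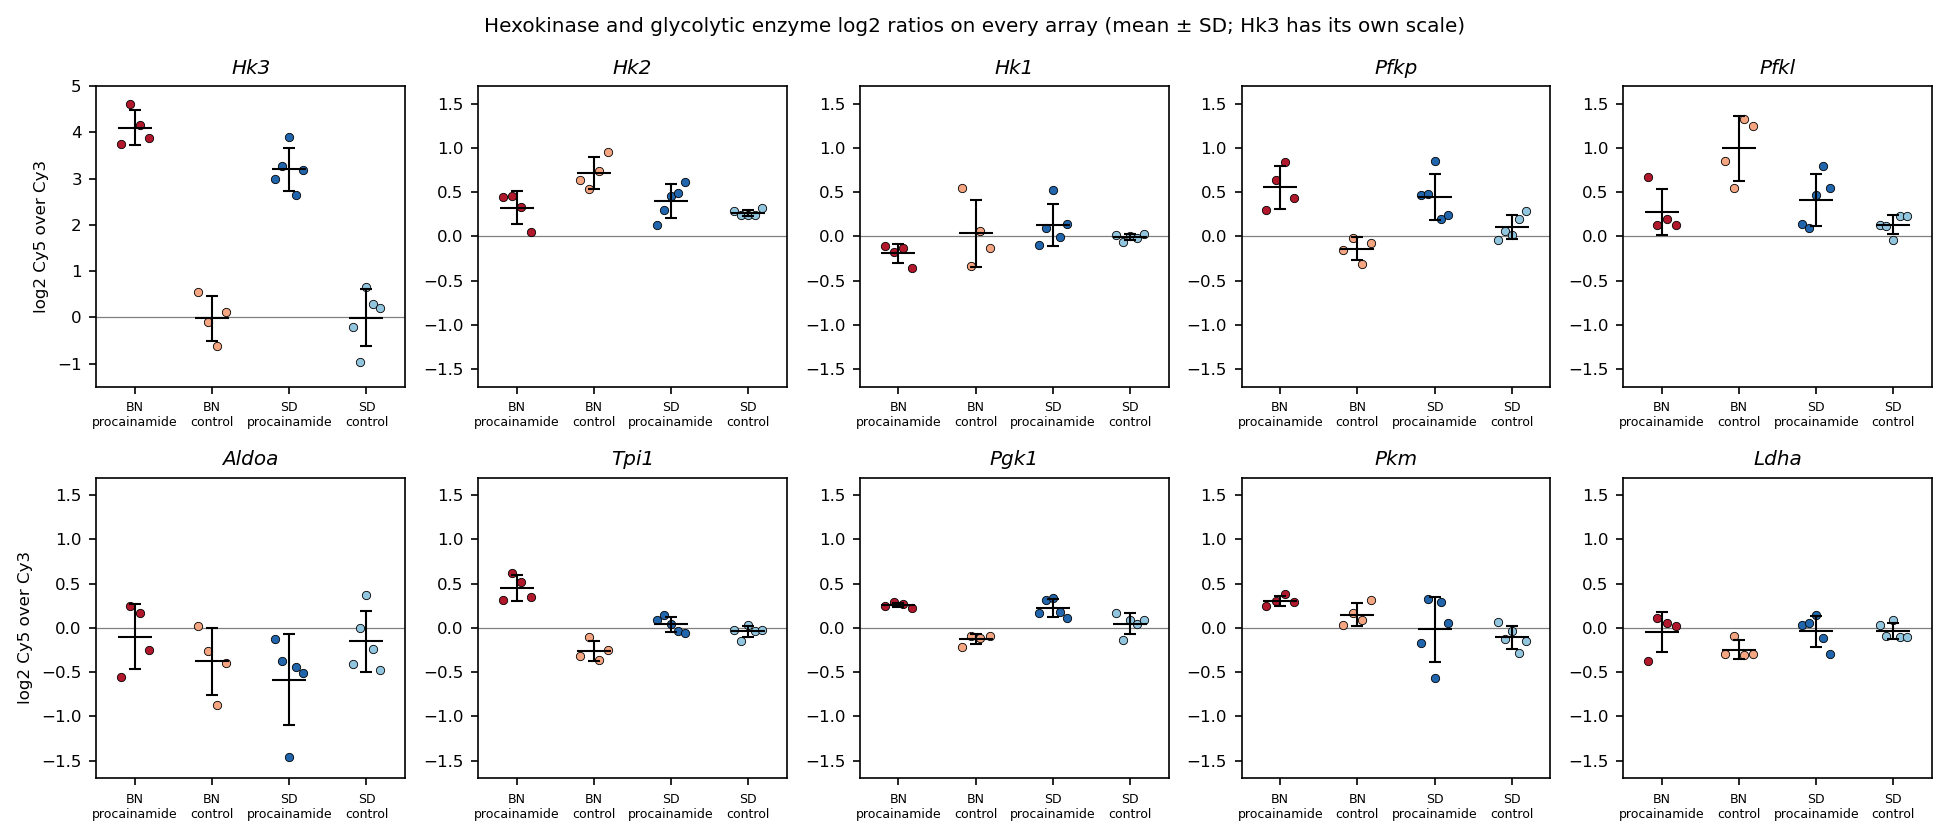
Log2 Cy5 over Cy3 (y axis) of each of the 10 genes on all 18 arrays, in 4 groups (x axis). Points are arrays and bars the mean ± SD. Hk3, on a scale of its own, is at 3.75 to 4.60 in BN procainamide and 2.64 to 3.91 in SD procainamide, above all control arrays of its strain, while every other value lies between -1.46 and 1.33.

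Phosphofructokinase is a tetramer of subunits, of which Pfkp is known as the platelet type and Pfkl as the liver type. Pfkp had log2 ratios of 0.30, 0.64, 0.84 and 0.43 in BN procainamide, against -0.15, -0.02, -0.31 and -0.07 in BN control, with no overlap. The difference was 0.69 ± 0.14, or 1.62-fold. Of 8 measured platelet markers, 4 were lower and none higher in the same blood, where 13.8% of all named genes were lower and 8.99% higher. None of these 4 passed once scan day was fitted, and only P2ry12 did once array brightness was fitted. All 4 kept their direction in both fits. The part of platelets in the Pfkp difference was not tested.

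The 2 Pfkl probes disagreed. The one that stands for the gene, A_64_P163510, had log2 ratios of 0.67, 0.13, 0.19 and 0.13 in BN procainamide, against 0.86, 0.54, 1.33 and 1.25 in BN control. BN procainamide 1 lay above BN control 2, so the groups overlapped, and BN control 1, labelled as an RNA against itself, read 0.86. The difference was -0.71 ± 0.18, a 1.64-fold lower ratio. The other probe, A_64_P163511, read 0.27, 0.13, 0.12 and -0.07 in BN procainamide, against 0.24, -0.30, -0.13 and 0.02 in BN control. Its difference was 0.15 ± 0.11 and did not pass, and the mean of both probes gave -0.28 ± 0.13, which did not pass either. The direction of Pfkl in BN blood therefore rests on 1 probe.

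Further down the pathway Tpi1, which interconverts the triose phosphates, had log2 ratios of 0.31, 0.63, 0.52 and 0.35 in BN procainamide, against -0.31, -0.10, -0.36 and -0.25 in BN control. The groups stood clear of each other. The difference was 0.71 ± 0.09, or 1.64-fold, and the second probe gave 0.69 ± 0.10.

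Pgk1, which makes the first ATP of the pathway, varied little within each BN group. It read 0.25, 0.29, 0.27 and 0.23 in BN procainamide, against -0.21, -0.09, -0.11 and -0.09 in BN control. The difference was 0.38 ± 0.08, or 1.30-fold, with no overlap.

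Aldoa, Pkm and Ldha did not pass in BN blood. Aldoa, which splits fructose 1,6-bisphosphate, read -0.55, 0.24, 0.16 and -0.24 in BN procainamide, against 0.02, -0.26, -0.88 and -0.40 in BN control. Treated and control arrays were interleaved, and the difference was 0.28 ± 0.27. Pkm, which makes pyruvate, read 0.24, 0.30, 0.38 and 0.29 in BN procainamide, against 0.03, 0.17, 0.09 and 0.32 in BN control, a difference of 0.15 ± 0.15. Only BN control 4 reached into the treated range, and the second Pkm probe gave 0.28 ± 0.18. Ldha read -0.37, 0.11, 0.06 and 0.03 in BN procainamide, against -0.29, -0.09, -0.31 and -0.30 in BN control. Here BN procainamide 1 was the lowest of the 8 arrays while the other 3 treated arrays lay above all controls, and the difference was 0.20 ± 0.11. Without BN procainamide 1 the Ldha difference was 0.31 and passed.

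**Figure D2:**
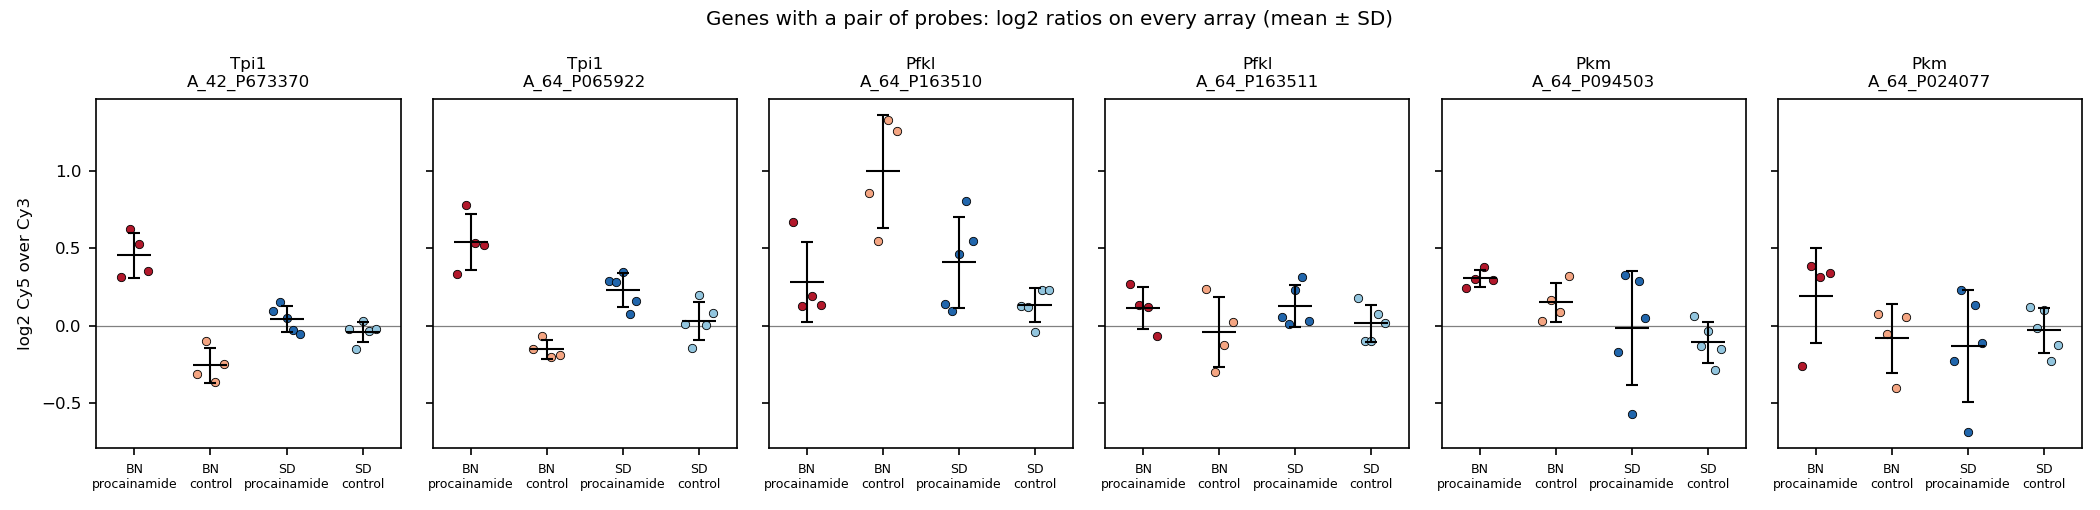
Log2 Cy5 over Cy3 (y axis) of both probes of Tpi1, Pfkl and Pkm on all 18 arrays, by group (x axis), with the mean ± SD. The Tpi1 probes show the same gap between the BN groups (0.71 and 0.69), whereas the mean of BN control is above that of BN procainamide on 1 of the 2 Pfkl probes.

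Scan day and array brightness moved with the BN groups, so both were fitted as terms. Hk3 alone of the 10 genes passed once scan day was fitted, at 3.64 ± 0.52. Tpi1 was then 0.57 ± 0.14, Pfkp 0.31 ± 0.20, Pgk1 0.26 ± 0.12, Pfkl -0.27 ± 0.27 and Hk2 -0.13 ± 0.17, each with its direction kept. With array brightness as a term Hk3 (4.02 ± 0.46) and Tpi1 (0.53 ± 0.10) passed, while Pfkl was -0.11 ± 0.14 and Hk2 -0.10 ± 0.13. The sizes of Hk3, Tpi1 and Pgk1 were thus held within 1.5 times under both terms, and those of Hk2 and Pfkl were reduced by more than 2 times. That of Pfkp, 0.69 with the groups alone, was also reduced by more than 2 times with scan day.

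**Figure D3:**
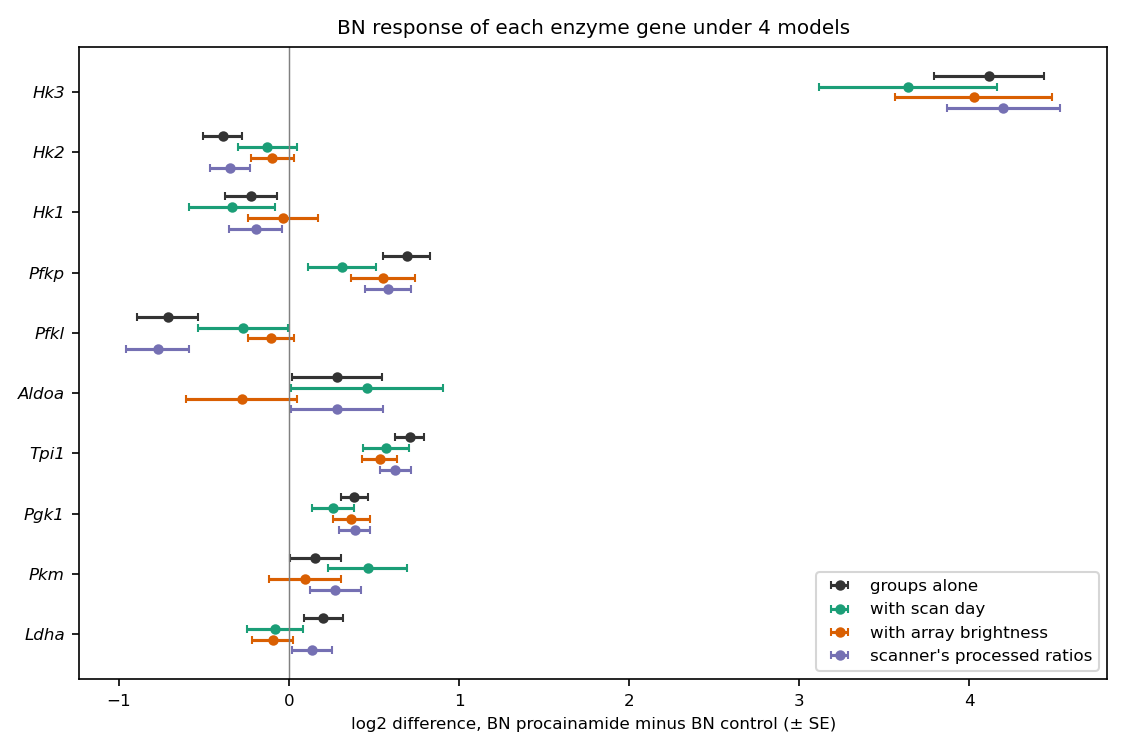
Log2 difference of BN procainamide minus BN control ± SE (x axis) for the 10 genes (y axis), with the groups alone, with scan day as a term, with array brightness as a term, and on the scanner software's processed ratios. Hk3 lies between 3.64 and 4.20 in all 4, and Pfkl is -0.71 with the groups alone but -0.27 and -0.11 with the added terms.

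The same question in SD blood rested on 5 treated and 5 control arrays. Hk3 alone passed, 1 of the 10 genes upward and 0 downward, where 1.42% of all named genes passed upward and 1.76% downward. The groups did not overlap in 1 of the 10 genes, against 8.92% of all named genes. Again nothing is read from counts of genes chosen by these ratios. The median difference was 0.14 over the 10 genes and -0.01 over all named genes.

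The Hk3 log2 ratio was 2.99, 3.27, 3.91, 2.64 and 3.18 on SD procainamide arrays 1 to 5, against -0.20, -0.97, 0.66, 0.30 and 0.20 on SD control arrays 1 to 5. All 5 treated arrays lay above all 5 control arrays. The means were 3.20 ± 0.46 and -0.00 ± 0.62 (SD, n = 5 each), a difference of 3.20 ± 0.29 (SE) or 9.18-fold, with rank 1 among the named genes in upward difference. On the arrays of slide 1 alone it was 3.39 ± 0.35, and without SD control 1 it was 3.15 ± 0.31.

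Among the other hexokinases, Hk2 read 0.13, 0.30, 0.45, 0.49 and 0.62 in SD procainamide, against 0.29, 0.25, 0.24, 0.24 and 0.32 in SD control. The treated arrays were more scattered than the controls and spanned them, and the difference was 0.13 ± 0.10. Hk1 read -0.09, 0.10, 0.52, -0.01 and 0.14 in SD procainamide, with SD procainamide 3 highest, and stayed between -0.06 and 0.02 in SD control. Its difference was 0.14 ± 0.14.

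Pfkp had log2 ratios of 0.47, 0.48, 0.85, 0.19 and 0.24 in SD procainamide, against -0.04, 0.07, 0.02, 0.20 and 0.29 in SD control. SD procainamide 4 and 5, which lay on slide 2, reached into the control range, and the other 3 treated arrays did not. The difference was 0.34 ± 0.12, and 0.49 ± 0.12 on slide 1 alone, and passed in neither. Pfkl read 0.14, 0.09, 0.46, 0.80 and 0.55 in SD procainamide, against 0.13, 0.12, -0.04, 0.23 and 0.23 in SD control. The difference was 0.27 ± 0.16 over all arrays and 0.10 ± 0.11 on slide 1 alone, and the second probe gave 0.11 ± 0.10. Slide moved with these values. Over 16 alternative fits, slide as a block and slide 1 alone among them, Pfkp ran from 0.18 to 0.49 and Pfkl from 0.05 to 0.31. Neither gene passed in any of these fits, and the cause was not tested.

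The lower enzymes stayed close to their controls in SD blood. Pgk1 read 0.17, 0.31, 0.34, 0.18 and 0.12 in SD procainamide, against 0.17, -0.14, 0.08, 0.05 and 0.09 in SD control, a difference of 0.18 ± 0.07 with SD control 1 inside the treated range. Tpi1 read 0.09, 0.15, 0.05, -0.03 and -0.05 in SD procainamide, against -0.02, -0.15, 0.03, -0.03 and -0.02 in SD control, a difference of 0.08 ± 0.08. Its groups overlapped, unlike those in BN, and its second probe gave 0.20 ± 0.09. Ldha ranged from -0.30 to 0.15 with a median of 0.03 in SD procainamide, and from -0.10 to 0.08 with a median of -0.09 in SD control, a difference of -0.00 ± 0.10. Pkm ranged from -0.57 to 0.33 in SD procainamide and from -0.29 to 0.06 in SD control, a difference of 0.09 ± 0.13.

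Aldoa had the widest spread of the treated SD arrays. It read -0.12, -0.38, -1.46, -0.45 and -0.51 in SD procainamide, against -0.41, 0.00, 0.37, -0.24 and -0.48 in SD control. SD procainamide 3 lay apart from the other 4 treated arrays, of which SD procainamide 5 was also below all controls and the remaining 3 fell in their range. The difference was -0.43 ± 0.24, and it ranged from -0.55 to -0.21 over single arrays left out.

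**Figure D4:**
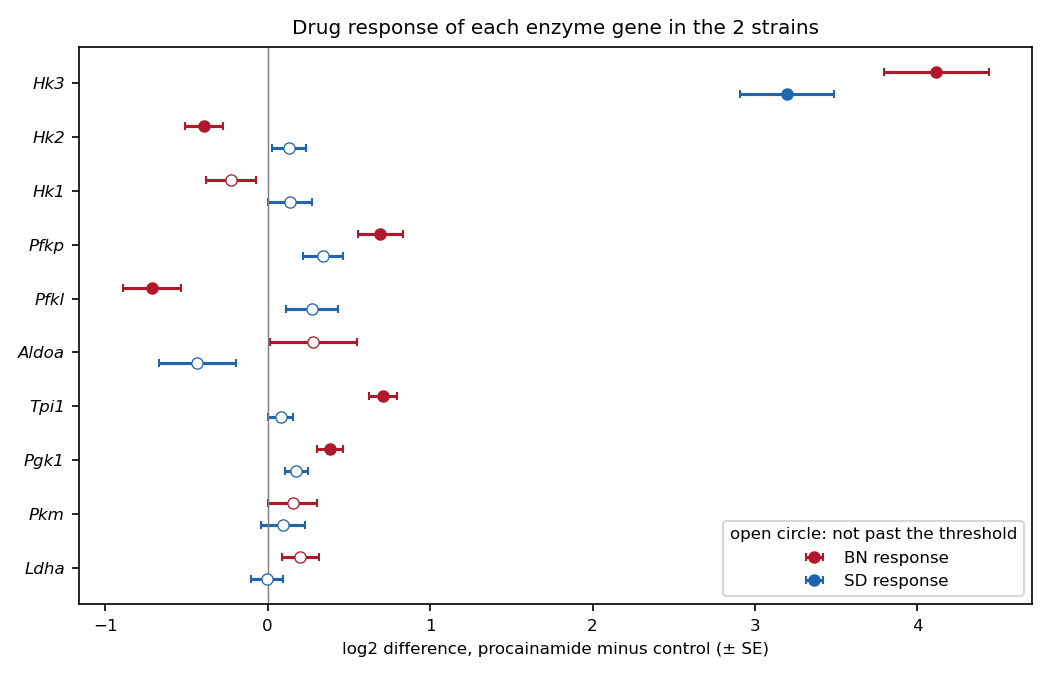
Log2 difference of procainamide minus control ± SE (x axis) for the 10 genes (y axis) in BN and SD blood, with filled circles for genes past the threshold. Hk3 stands at 4.12 in BN and 3.20 in SD, and in SD the other 9 genes lie between -0.43 and 0.34.

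Whether the strains differed in the response itself was fitted as the BN difference minus the SD difference. Of the 10 genes, 1 was higher and 2 lower past the threshold, where 3.15% of all named genes were higher and 7.54% lower. Tpi1 gave 0.63 ± 0.12, from 0.71 in BN and 0.08 in SD, and its second probe 0.49 ± 0.13, which passed too. Pfkl gave -0.99 ± 0.24, from -0.71 in BN and 0.27 in SD, but its second probe gave 0.04 ± 0.15. Hk2 gave -0.52 ± 0.15, from -0.39 in BN and 0.13 in SD. The Hk3 responses of 4.12 in BN and 3.20 in SD differed by 0.92 ± 0.43, which did not pass. The other 6 genes lay between -0.36 (Hk1) and 0.71 (Aldoa), and Hk1 was -0.19 ± 0.16 without BN control 1. With scan day as a term Tpi1 was 0.43 ± 0.19, Pfkl -0.37 ± 0.37 and Hk2 -0.16 ± 0.24, and none passed. With array brightness as a term these were 0.39 ± 0.14, -0.16 ± 0.18 and -0.12 ± 0.17, and none passed. Hk2 also failed to pass without 11 of the 18 arrays in turn, with values from -0.53 to -0.43 in those fits.

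Untreated blood of the strains was compared in log2 Cy5 signal after normalization between arrays. This signal is the numerator of the ratios the genes were chosen by, on the same arrays, so the values of the 10 genes are again a description with no p-value. By the probe that stands for each gene, Hk2, Pfkl and Hk1 were higher in BN control and Tpi1 lower. The other Pfkl probe was lower, so the place of Pfkl in the count rests on 1 probe. Thus 3 of 10 were higher, where 15.7% of all named genes were, and 1 of 10 lower, where 21.9% were, and nothing is read from these counts. The median difference was 0.02 over the 10 genes and -0.07 over all named genes.

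Hk2 had the largest of these differences. Its log2 Cy5 signal was 11.836, 12.001, 11.995 and 12.148 in BN control, against 11.004, 10.945, 11.128, 11.129 and 11.122 in SD control. The strains were far apart relative to their spread, with a difference of 0.93 ± 0.11 or 1.90-fold, and it lay between 0.88 and 0.98 over single arrays left out. With scan day as a term it was 0.56 ± 0.15 and did not pass.

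Hk1 read 15.00, 14.41, 14.60 and 14.48 in BN control, against 14.25, 14.20, 14.29, 14.26 and 14.37 in SD control. All BN arrays were higher, BN control 1 most of all. The difference of 0.35 ± 0.11 was 0.22 ± 0.09 without BN control 1 and then did not pass. Hk3, by contrast, ranged from 11.72 to 12.82 in BN control and from 11.00 to 12.52 in SD control, a difference of 0.31 ± 0.27, and 0.12 ± 0.28 without BN control 1.

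Pfkl gave opposite answers on its 2 probes. Probe A_64_P163510 read 12.98, 12.65, 13.31 and 13.31 in BN control, against 12.50, 12.46, 12.13, 12.63 and 12.59 in SD control, a difference of 0.60 ± 0.18. Probe A_64_P163511 read 12.21, 11.60, 11.84 and 11.92 in BN control, against 12.51, 12.28, 12.36, 12.50 and 12.35 in SD control, a difference of -0.51 ± 0.13. Each probe separated the strains without overlap, in opposite directions, so no direction is given for the gene.

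Tpi1 ranged from 14.37 to 14.67 in BN control and from 14.63 to 14.82 in SD control. The groups overlapped, the difference was -0.24 ± 0.09, and the second probe gave -0.07 ± 0.06. Tpi1 passed narrowly and did not pass without 10 of the 18 arrays in turn, among them BN control 1 (-0.22) and SD control 1 (-0.25). Aldoa just missed the threshold at -0.57 ± 0.22 and passed without 5 of the 18 arrays in turn, among them BN control 1 (-0.71). Pfkp (-0.24 ± 0.11), Pgk1 (-0.13 ± 0.07), Ldha (-0.11 ± 0.07) and Pkm (0.16 ± 0.13) did not pass. The control groups lay on different slides, scanned on different days. None of the 10 genes passed once scan day was a term, and the direction of Tpi1 turned (0.07 ± 0.13).

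**Figure D5:**
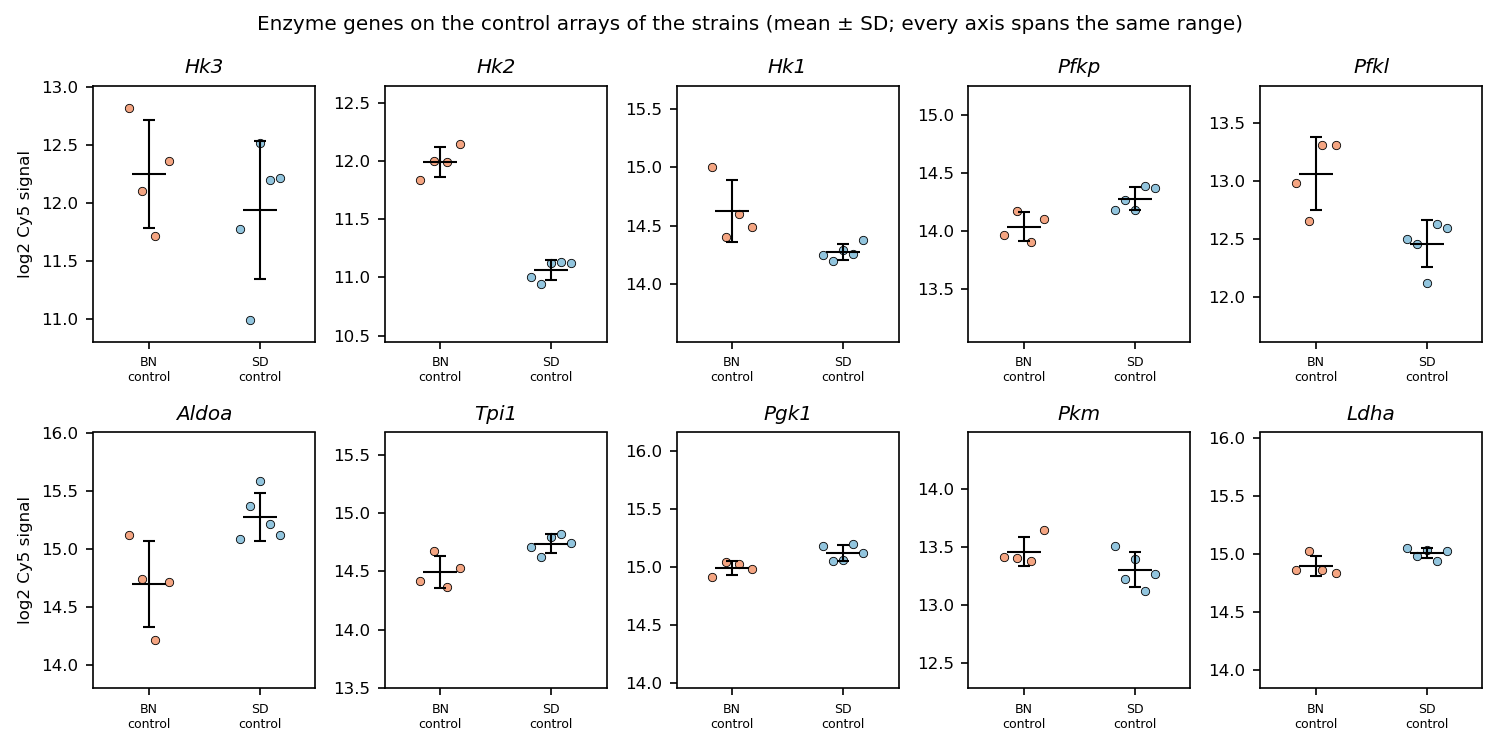
Log2 Cy5 signal (y axis, each panel spanning the same range) of the 10 genes on the 4 BN control and 5 SD control arrays, with the mean ± SD. Hk2 lies at 11.84 to 12.15 in BN control and at 10.94 to 11.13 in SD control.

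Around these genes, 80 others of glucose metabolism were listed in 6 groups, and 75 of them were measured. In BN blood 14 rose, where 8.99% of all named genes did, and 6 fell, where 13.8% did. The median difference was 0.13. In SD blood 0 rose and 2 fell by limma, where 1.42% of all named genes rose and 1.76% fell. The median there was -0.04. An unadjusted limma p under 0.05 was found in SD for 17 of the 75 and for 2522 of the 13616 named genes. In the strain difference 4 were higher, where 3.15% of all named genes were, and 2 lower, where 7.54% were. With scan day or with array brightness as a term limma called 0 of these 6. Both SD calls were lost with scan day. The list was drawn up with earlier results of these arrays known.

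In the rest of glycolysis 2 of 16 measured genes rose in BN blood and none fell. These were glucose 6-phosphate isomerase Gpi (0.48 ± 0.11, limma adjusted p = 0.00651) and the triose phosphate dehydrogenase Gapdh (0.39 ± 0.11, limma adjusted p = 0.0184). In Cy5 alone the Gapdh difference was 0.07 (limma adjusted p = 0.581), and Gapdh did not pass on the mean of all its probes either. The pentose phosphate pathway, which branches off after hexokinase and makes NADPH, had 3 of 6 measured genes higher and none lower. Among them transketolase Tkt rose by 0.53 ± 0.09 (limma adjusted p = 0.000631) and ribose 5-phosphate isomerase Rpia by 0.56 ± 0.13 (limma adjusted p = 0.00452). Both were also higher in the strain difference, Rpia by 0.64 ± 0.17 (limma adjusted p = 0.0212) and Tkt by 0.49 ± 0.12 (limma adjusted p = 0.0142). In Cy5 alone the strain difference was 0.31 for Rpia (limma adjusted p = 0.138) and 0.47 for Tkt (limma adjusted p = 0.0105). Neither strain difference passed on the scanner software's processed values. In SD blood none of the 6 passed, and their median difference was -0.01.

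Of 9 measured glucose and lactate transporters, Slc2a6, a lysosomal glucose transporter family member, rose in BN blood (0.95 ± 0.24, limma adjusted p = 0.0102) and none fell. Of 17 regulators of glycolytic flux 3 rose and 1 fell. Gckr, which restrains glucokinase in liver, rose by 0.74 ± 0.14 (limma adjusted p = 0.00140), the mitochondrial pyruvate carrier gene Mpc1 by 0.43 ± 0.11 (limma adjusted p = 0.0124) and Pfkfb2, which makes the activator fructose 2,6-bisphosphate, by 0.44 ± 0.14 (limma adjusted p = 0.0320). Epas1, the hypoxia-inducible factor 2 alpha gene, fell by 0.53 ± 0.10 (limma adjusted p = 0.00183). In Cy5 alone the Epas1 difference was -0.13 and did not pass (limma adjusted p = 0.390).

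Gluconeogenesis and glycogen genes split, with 2 of 16 higher and 2 lower in BN blood. The gluconeogenic enzyme Pck1 averaged 0.08 ± 0.54 in BN procainamide and 1.81 ± 0.41 in BN control (SD, n = 4 each), a difference of -1.74 ± 0.30 (limma adjusted p = 0.000738). Pgm2 rose by 0.35 ± 0.10 (limma adjusted p = 0.0150) and the glycogen phosphorylase Pygl by 0.35 ± 0.12 (limma adjusted p = 0.0425), while the muscle form Pygm was lower (-0.45 ± 0.14, limma adjusted p = 0.0321). The Pygm difference turned to 0.04 in Cy5 alone. In SD blood Pygm also fell (-0.51 ± 0.13, limma adjusted p = 0.0398). Pck1 was lower in the strain difference (-2.27 ± 0.40, limma adjusted p = 0.00250), but -1.09 with scan day (limma adjusted p = 0.836) and -0.75 with array brightness (limma adjusted p = 0.364).

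Hypoxia targets outside glycolysis were split evenly, with 3 of 11 higher and 3 lower in BN blood. Ddit4, a stress-induced inhibitor of mTOR signalling, fell by 1.36 ± 0.21 (limma adjusted p = 0.000315) and the vasodilator peptide gene Adm by 0.71 ± 0.14 (limma adjusted p = 0.00205). The prolyl hydroxylase Egln3 rose by 0.55 ± 0.12 (limma adjusted p = 0.00441) and the carbonic anhydrase Car9 by 0.26 ± 0.09 (limma adjusted p = 0.0395). In SD blood Adm fell by 0.49 ± 0.13 (limma adjusted p = 0.0477). In the strain difference Ddit4 was lower (-1.18 ± 0.28, limma adjusted p = 0.0120) and Car9 higher (0.43 ± 0.12, limma adjusted p = 0.0244). Of the 20 other genes called in BN, 1 passed with scan day as a term (Epas1), and with array brightness 4 did, Ddit4, Tkt and Epas1 among them, while all 20 kept their direction under both. In Cy5 alone 13 of the 20 passed, Epas1 not among them, and 19 kept their direction.

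Between the untreated strains the median of the 75 other genes was -0.09. Of them 8 were higher in BN control, where 15.7% of all named genes were, and 12 lower, where 21.9% were. With scan day as a term 1 of these 20 passed (G6pc1) and 17 kept their direction. In the rest of glycolysis Ldhc (0.50 ± 0.10, limma adjusted p = 0.00108), Aldoc (0.54 ± 0.11, limma adjusted p = 0.00127), Pgam1 (0.36 ± 0.08, limma adjusted p = 0.00201) and Eno2 (0.48 ± 0.15, limma adjusted p = 0.0163) were higher in BN control. They are among 5 of 16 that were higher, and 1 was lower. Of the pentose phosphate genes Rpe was higher (1.06 ± 0.23, limma adjusted p = 0.00194) and Pgls (-0.60 ± 0.11, limma adjusted p = 0.000693) and Tkt (-0.27 ± 0.09, limma adjusted p = 0.0259) were lower. With scan day as a term the directions of Rpe (-0.09) and Tkt (0.08) turned.

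Among gluconeogenic genes Pck1 was at 12.45 ± 0.39 log2 Cy5 in BN control and 10.61 ± 0.22 in SD control (SD, n = 4 and 5), a difference of 1.83 ± 0.32 (limma adjusted p = 0.000434). It was 0.63 with scan day (limma adjusted p = 0.564) and 0.71 with array brightness (limma adjusted p = 0.0493). G6pc1 (-0.96 ± 0.11, limma adjusted p = 1.45e-05), Pygm (-0.72 ± 0.16, limma adjusted p = 0.00223) and Pygl (-0.47 ± 0.11, limma adjusted p = 0.00231) were lower in BN control. G6pc1 and the insulin-responsive transporter Slc2a4 (-1.46 ± 0.35, limma adjusted p = 0.00358) were dim, well above background on 15 and 17 of the 18 arrays. In all 3 regulators were lower, Mpc2 (-0.33 ± 0.09, limma adjusted p = 0.00936), Pfkfb4 (-0.58 ± 0.16, limma adjusted p = 0.0107) and Epas1 (-0.27 ± 0.11, limma adjusted p = 0.0497), of 17 measured. Of the hypoxia targets Ddit4 was higher (0.43 ± 0.13, limma adjusted p = 0.0131), and Egln3 (-0.51 ± 0.12, limma adjusted p = 0.00343) and Bnip3l (-0.32 ± 0.12, limma adjusted p = 0.0454) were lower.

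The genes whose 18 log2 ratios lay nearest those of Hk3 were Acod1, with a mean absolute difference of 0.42 per array, Cxcl9 (0.71), Ifng (0.78), Ass1 (0.80) and Ubd (0.89). Acod1 makes itaconate in activated macrophages, Cxcl9 is a chemokine, Ifng encodes interferon gamma, Ass1 serves arginine synthesis and Ubd is a ubiquitin-like modifier. Their own differences were 4.89 in BN and 3.06 in SD for Acod1, 3.14 and 2.13 for Cxcl9, 3.43 and 2.17 for Ifng, 3.87 and 1.44 for Ass1, and 2.76 and 2.12 for Ubd. The measure of likeness follows size as well as pattern, and the 18 arrays share only 4 group means.

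Markers of the cells of blood were read beside Hk3. Of all named genes 8.99% passed upward and 13.8% downward in BN blood, and 1.42% upward and 1.76% downward in SD blood. Of 17 measured neutrophil markers 2 rose in BN blood (Ncf1 by 0.55, Mmp9 by 0.97) and 1 fell (Fpr1). The differences of the 17 ran from -0.77 to 1.08. Median log2 ratios of the list ran from -0.49 to 0.55 on BN procainamide arrays and from -0.51 to 0.04 on BN control arrays. Of 14 monocyte and macrophage markers 2 rose (Lyz2 by 1.29, Marco by 2.16) and 2 fell (Mrc1 and Msr1). The differences of the 14 ran from -1.21 to 2.16. List medians ran from -0.49 to 0.38 in BN procainamide and from -0.46 to 0.12 in BN control. In SD blood none of the neutrophil markers passed, with list medians from -0.49 to 0.13 in SD procainamide and from -0.28 to 0.16 in SD control. There 1 monocyte marker fell (Mrc1, -1.11) and none rose, with list medians from -0.24 to -0.03 in SD procainamide and from -0.23 to 0.08 in SD control. The neutrophil list median of the BN differences was 0.41, and -0.14 with array brightness as a term. The defining markers S100a8, S100a9, Mmp8, Cd14, Csf1r and Cd68, and the red cell gene Hbb, were well above background on all 18 arrays.

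In the other blood cell lists, eosinophil and basophil markers had 2 of 9 higher and 3 lower in BN blood, and platelet markers 0 of 8 higher and 4 lower. Of all named genes 8.99% were higher there and 13.8% lower. Platelet list medians ran from -0.72 to -0.22 in BN procainamide and from -0.21 to 0.22 in BN control. Erythroid markers had 0 of 11 higher and 1 lower. Their list median was 1.44 on BN control 1, against -1.65, -0.78 and -1.20 on BN control 2 to 4. In BN procainamide it ran from -1.81 to -0.14. T cell markers had 1 of 13 higher and 0 lower, B cell markers 0 of 7 higher and 1 lower, and NK cell markers 1 of 8 higher and 0 lower. In SD blood 1 NK cell marker passed upward (Nkg7, 0.49) and no marker of these 6 lists passed downward. Platelet list medians there ran from -0.52 to -0.17 in SD procainamide and from -0.21 to 0.14 in SD control. Between the untreated strains 6 of 8 platelet markers were higher in BN control and 0 lower, and of 17 neutrophil markers 5 were higher and 2 lower. In that comparison 15.7% of all named genes were higher and 21.9% lower. Of the 20 cell markers called in BN, limma called 0 with scan day as a term and 5 with array brightness, and all 20 kept their direction under both. Of the 25 called between the untreated strains, 1 passed with scan day (Fcer2) and 6 with array brightness. Both SD marker calls, Mrc1 and Nkg7, were lost under either term. The part of these cells in the differences of the enzyme genes was not tested.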

How the data were processed

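RNA of 18 blood samples was hybridised to Agilent 2-colour arrays (design 028279). The deposited median spot and background intensity values of both channels, the software's processed intensities and its log10 ratios were made with Feature Extraction 10.7.1.1, per the file headers. A table of log2 ratios by the authors covers 25602 probes, with scale, direction and probe filter unstated. Its columns lie on a slope of 1 against the scanner's ratios taken to base 2, with medians of 0.0653, 0.0477, 0.0179 and 0.0368 for BN procainamide, of -0.0140, 0.0135, 0.00266 and 0.000872 for BN control, of 0.0282, 0.0367, 0.0575, 0.0180 and 0.0133 for SD procainamide and of 0.0210, 0.00510, 0.0173, 0.0121 and 0.0181 for SD control. Per the file headers the build is rn4, and gene names came from RefSeq by the files' accessions.

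From the median intensities, background was corrected with normexp (offset 50) and ratios were normalized by loess within arrays in R 4.3.3 with limma 3.58.1. Spots of a probe were averaged, outlier flags and control spots left out. Of 30367 probes, 18355 had 1 symbol. Tested were 26446, those whose Cy5 signal passed the scanner's background test on 4 arrays or more. No spot was saturated. The control comparison and the fits in Cy5 alone used log2 Cy5 after loess and Aquantile.

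Each comparison was a contrast of the 4 group means over all 18 arrays (limma, eBayes, 14 residual degrees of freedom, 2-sided, Benjamini-Hochberg over all probes tested, threshold 0.05). The limma step was tested on simulated data. Whether arrays come from separate animals is not stated, so p-values, given for other genes than the 10 members, reflect only the spread among these arrays, whose number sets the precision. The members, the 6 pathway and 8 cell lists, the motifs and the alternatives were chosen with earlier results of these data known. Besides the 10 members, up to 4 genes of smallest p per pathway list and comparison and the 5 genes nearest to Hk3 were named, and 1 gene of the pathway lists is counted but not reported here. Same-numbered arrays of a strain did not deviate together (correlations of deviations from -0.523 to 0.129). Alternatives covered background correction, normalization, probe choice and filter, Cy5 alone, scan day, slide, array brightness, array weights, a replicate block, the 2 groups alone and each array left out.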

Additional observations from a re-analysis of the deposited data

Results flagged for a closer look

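Aldoa on SD procainamide 3, at a log2 ratio of -1.46, stood apart from the other 4 treated SD arrays, the nearest of which was at -0.51. Ldha on BN control 2, at -0.0908, stood apart from the other 3 BN control arrays, the nearest of which was at -0.29. Pfkl on BN procainamide 1, at 0.67 on probe A_64_P163510, stood apart from the other 3 treated BN arrays, the nearest of which was at 0.19. These are 3 of 40 sets of arrays looked at, and chance gives about 1 in 20.

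In 3 genes the response differed between the strains past the threshold when the difference itself was fitted: Tpi1 (0.63), Hk2 (-0.52) and Pfkl (-0.99). The Tpi1 difference was seen on both of its probes and the Pfkl difference on 1 of 2. None of the 3 passed with scan day or with array brightness as a term. Hk2 also did not pass without 11 of the 18 arrays in turn. The genes were chosen by these same ratios. The causes were not tested.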

How the results depend on the processing

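Hk3 passed in both strains under every alternative run, from 3.32 to 4.43 in BN and from 2.69 to 3.39 in SD apart from single arrays left out. The number of the 10 genes past the threshold in BN (6) was 1 with scan day as a term, 2 with array brightness and 1 with the replicate block, and 5 to 7 with an array left out. In SD it was 1 throughout. In the strain difference (3) it was 5 with Cy5 alone, 0 with scan day and 0 with brightness, and 2 to 3 with an array left out. Between controls (4) it was 2 on the scanner's processed values, 0 with scan day, 2 with slide as a random block, 1 with brightness, and 2 to 5 with an array left out, being 2 without BN control 4. The Tpi1 control difference turned to 0.0661 with scan day.

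Of the 20 cell markers called in BN, 0 were called with the replicate block. For the other pathway genes, the BN count (20) was 38 with Cy5 alone, 1 with scan day, 4 with brightness, 1 with the replicate block, 11 with the 2 groups alone and 15 to 28 with an array left out. The SD count (2) was 0 with plain subtraction, on processed values and with scan day (17, 18 and 11 at an unadjusted p under 0.05, limma), 1 without background correction, without the filter, with Cy5 alone, with brightness and on slide 1 alone (chosen after seeing the data), 9 with array weights, 7 with the 2 groups alone and 0 to 4 with an array left out. It was 4 without BN control 1 and 0 without SD control 1, 2, 4 or 5 or SD procainamide 2, 3, 4 or 5. The strain difference count (6) was 27 with Cy5 alone, 0 with scan day and 0 with brightness (3 and 11 unadjusted), 2 with the replicate block, 11 with array weights and 5 to 10 with an array left out, being 10 without BN procainamide 1. The control count (20) was 1 with scan day, 8 with slide as a random block, 5 with brightness and 14 to 24 with an array left out.

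The number of named genes called in BN was 3108, 113 with scan day, 413 with brightness, 160 with the replicate block, 1457 with the 2 groups alone and 5215 with Cy5 alone. In SD it was 433, and 155 with scan day, 208 on slide 1 alone, 254 with brightness, 284 with the replicate block, 1465 with array weights, 891 with the 2 groups alone and 135 (without SD control 2) to 584 with an array left out, being 205 to 257 without SD procainamide 2, 3, 4 or 5 and 221 to 253 without SD control 1, 4 or 5. In the strain difference it was 1455, and by limma 0 with scan day (737 unadjusted), 5 with brightness, 631 with the replicate block, 4489 with Cy5 alone and 920 without BN control 4. Between controls it was 5112, and 203 with scan day, 2159 with slide as a random block and 1390 with brightness. Of the BN calls 39.4% were higher, against 59.2% with Cy5 alone, where the median of all genes was 0.08. Of the strain difference calls 29.5% were higher, against 40.0% with median centring and 60.3% with Cy5 alone, where the median was 0.13. The causes were not tested. No label says that replicate numbers pair the arrays, so the block adds terms for a number of unstated meaning. Groups of 4 or 5 arrays and unbalanced slides limit small differences.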
